A study of Mus musculus with 27 samples.

Results

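The 10 genes described here are Nfe2l2, which encodes the transcription factor NRF2, 5 genes that NRF2 is known to switch on (Nqo1, Gclc, Gclm, Txnrd1 and Srxn1), and 4 enzymes that remove superoxide or hydrogen peroxide (Gpx1, Sod1, Sod2 and Cat). They were taken by gene symbol alone from a table of 54532 genes, and all 10 were among the 14630 genes tested. The table came from bulk RNA sequencing of the tibialis anterior, a muscle at the front of the lower leg, after volumetric muscle loss (VML), an injury in which so much muscle is cut away that it does not regrow normally. The animals were male C57BL/6 mice aged 8 weeks, and 40% of the muscle had been removed. The series record describes the excision as unilateral and the study's methods as bilateral. The 5 groups measured were 5 uninjured Control muscles, and muscles explanted on Day 3 (5 samples), Day 7 (6), Day 14 (6) and Day 21 (5) after injury. No group carried an engineered allele or received a drug, and nothing in the labels says which muscles came from the same animal, so that p-values measure the spread between these samples. Different animals were used at each time, so that a change over days is a difference between groups and not a course followed in any muscle.

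In an unstressed cell NRF2 is bound by KEAP1, which hands it to a ubiquitin ligase built on CUL3 for destruction. Oxidants and reactive chemicals modify KEAP1, NRF2 then escapes, enters the nucleus, pairs with a small MAF protein and binds antioxidant response elements near its target genes. NRF2 activity is therefore set largely at the level of the protein, which RNA does not show, and its state is usually read from the RNA of its targets. Skeletal muscle makes superoxide and hydrogen peroxide in its mitochondria and during contraction, and cells that infiltrate an injury release oxidants of their own. Superoxide dismutases turn superoxide into hydrogen peroxide, which catalase, the glutathione peroxidases and the peroxiredoxins then remove.

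Levels are given in FPKM, a unit that divides the fragments of a gene by its exon length and by a measure of the library's depth, so that genes can be compared. Changes are log2 fold changes of FPKM + 1 with their standard error (SE), and understate the change of genes at a low level. A gene was called changed when its adjusted p was under 0.05 in limma, fitted to all 27 samples and 14630 genes. The libraries held 14376395 to 24436763 reads assigned to genes. The depth denominator behind the deposited FPKM was not the library's own total of those reads, being 0.747 to 0.819 times that total in Control and 1.14 to 1.48 times in Day 3. On the deposited scale the median log2 change of all tested genes was 0.01 on Day 3, but it was 0.62 when FPKM were rescaled to a common sum and 0.40 when the library's own total was the denominator. The called genes numbered 3417 higher and 2899 lower on the deposited scale, against 6942 and 324 on the common sum and 6534 and 618 on the own total. Quantile normalization gave 2774 higher and 3734 lower. Median-ratio scaling, which divides each library by the median ratio of its genes to their mean over libraries, gave 3414 and 2899. It thus left the deposited scale nearly as it was. Day 7 had 2189 higher and 2107 lower on the deposited scale and 6372 and 210 on the common sum, Day 14 had 1320 and 1649 against 2096 and 117, and Day 21 had 255 and 247 against 64 and 8. A rise or fall in the text is therefore relative to the typical gene, and where a direction turned under a total-based scale the value is given. By whole profile, 9 of the 27 libraries lay nearer to the mean of another group than to their own, among them Day 3 replicate 5 and Day 7 replicate 5, each of which lay nearer to the other's group. The mature fast fibre markers, 8 genes such as Myh4 and Ckm, summed to 87584 to 104311 FPKM in Control and to at least 22442 FPKM in every injured library, so that each sample held muscle. In bulk tissue, fewer cells of a type and less RNA per cell cannot be told apart.

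Antioxidant response elements share the core TGACNNNGC, in which N is any base. This core was searched on both strands of RefSeq promoter windows of 300 bases around the start of transcription (GRCm38.p6). Of the 10 genes, 9 had such a window, with 11 windows in all, and Gclc was not in the table. The core was present in 5 of the 9 genes, against 14.0% of all 27025 genes with a window and 10 of 47 other genes of the redox lists described further on. The 5 matches are shown so that the letters behind this count can be read. Each is printed 5′ to 3′ on the strand that carries the core, with the core in capitals and 10 bases on either side.
Nfe2l2: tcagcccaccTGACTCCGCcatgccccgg
Gclm: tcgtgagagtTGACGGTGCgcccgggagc
Txnrd1: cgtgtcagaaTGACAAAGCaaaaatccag
Srxn1: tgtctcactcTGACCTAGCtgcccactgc
Sod1: ggcctgagtcTGACCACGCccaccttggc
The Nfe2l2 match lay at chr2:75704885-75704913 on the minus strand, which is the gene's own, 240 bases before its start. The Gclm match was at chr3:122245413-122245441 on the minus strand, 134 bases before the start. In Txnrd1, which has 3 windows, the match was in the window of its second start, at chr10:82859104-82859132 on the minus strand and 92 bases before that start. The Srxn1 match lay 28 bases after the start, at chr2:152105542-152105570 on the minus strand, and so within the first exon. The Sod1 match was at chr16:90220696-90220724 on the minus strand, 56 bases before the start. Nqo1, Gpx1, Sod2 and Cat had no match, which says only that these letters are not in these windows. The core allows 3 free bases and can overlap motifs of other factors, so that a match is a description of the sequence and not a bound site.

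The whole window of Gclm is shown because Gclm was the only NRF2 target of the 5 called higher at any time after injury on the deposited scale. That call, on Day 3, was weak (adjusted p = 0.0416 in limma), and 23.4% of all genes were called higher on that day. Txnrd1 and Srxn1 also hold the core and were not called on that scale, and a link between core and level was not tested. The window spans chr3:122245307-122245606, plus strand, with the core in capitals.
Gclm promoter: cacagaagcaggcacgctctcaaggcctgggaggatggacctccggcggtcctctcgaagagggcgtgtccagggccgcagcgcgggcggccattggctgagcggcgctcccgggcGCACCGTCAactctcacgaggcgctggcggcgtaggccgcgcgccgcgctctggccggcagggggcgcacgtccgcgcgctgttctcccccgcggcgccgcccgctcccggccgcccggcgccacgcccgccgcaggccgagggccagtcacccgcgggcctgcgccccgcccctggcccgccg
The letters in capitals are the core read on the gene's own strand, and are therefore the reverse complement of the core in the shorter Gclm line.

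**Figure D1:**
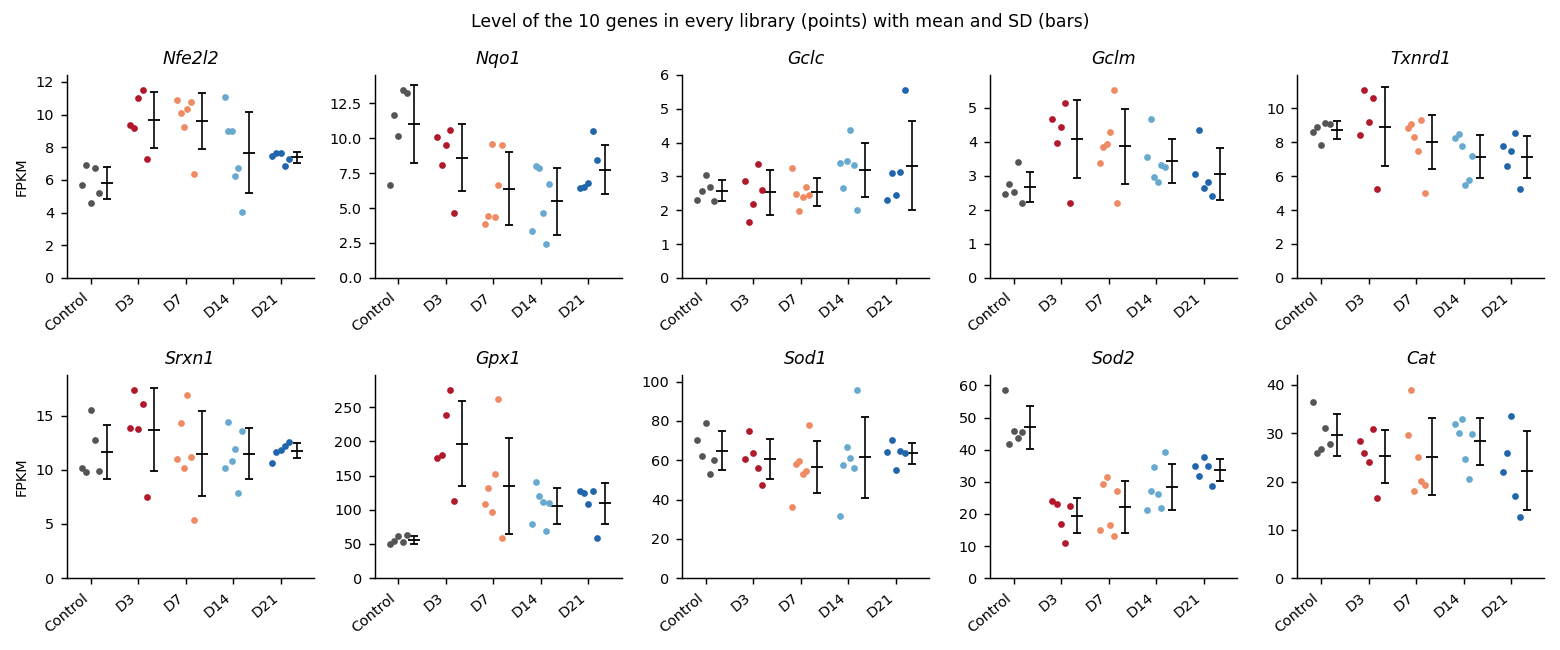
Level of the 10 genes in FPKM (linear axes from 0) in every library, by group (Control and days after VML, D3 to D21); points are libraries and bars the mean and SD of 5, 5, 6, 6 and 5 libraries. Gpx1 stood above all 5 Control libraries in all Day 3 and Day 14 libraries, and Sod2 below all 5 Control libraries at every time.

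Of the 10 genes, 3 were called higher and 1 lower on Day 3, namely Nfe2l2, Gclm and Gpx1 against Sod2. Among all tested genes 23.4% were called higher and 19.8% lower, so that the share of the 10 genes called was not far from that of genes at large. On Day 7, 2 were called higher (Nfe2l2 and Gpx1) and 2 lower (Nqo1 and Sod2), with a background of 15% higher and 14.4% lower. On Day 14 Gpx1 was called higher and Nqo1 and Sod2 lower, against 9.02% higher and 11.3% lower of all genes. On Day 21 none of the 10 was called by limma, when 1.74% of all genes were called higher and 1.69% lower; 2 of the 10 had an unadjusted p under 0.05. The median log2 change of the 10 genes was -0.02 on Day 3 and 0.01 on Day 21, beside 0.01 for all tested genes at both times. Gclc, Txnrd1, Srxn1, Sod1 and Cat were not called at any time on the deposited scale. Leaving out Day 3 replicate 5 and Day 7 replicate 5 together left the counts on Day 3, Day 7 and Day 14 as they were and gave 1 higher call on Day 21, Gpx1. Between Day 21 and Day 3, Sod2 was called higher and Gpx1 lower on Day 21, when 9.23% of all genes were called higher and 16.2% lower.

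**Figure D2:**
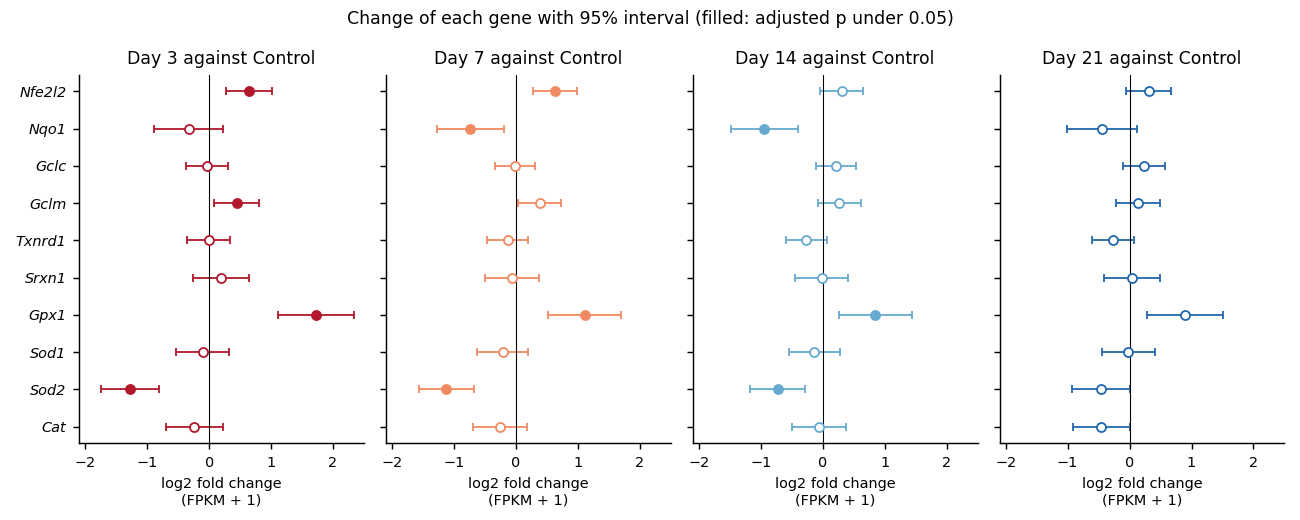
Log2 fold change of FPKM + 1 against Control for each gene at each time (x axis), with the 95% interval of limma; filled points have an adjusted p under 0.05. Nfe2l2, Gclm and Gpx1 lay to the right of 0 at all 4 times, and Nqo1, Txnrd1, Sod1, Sod2 and Cat to the left. The intervals of Gclc, Txnrd1, Srxn1 and Sod1 held 0 at all 4 times.

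Nfe2l2 (chr2:75675513-75704641, minus strand) rose early. Its level was 5.72, 6.89, 4.60, 6.70 and 5.20 FPKM in the 5 Control libraries and 9.34, 9.15, 11, 11.5 and 7.28 FPKM on Day 3. All 5 Day 3 libraries lay above the Control range, and the change was 0.64 (SE 0.18, adjusted p = 0.00485), a 1.56-fold rise with a 95% interval of 1.21 to 2.01. On Day 7 the lowest, median and highest levels were 6.36, 10.2 and 10.9 FPKM, and the change was 0.63 (SE 0.17, adjusted p = 0.00742). On Day 7, 5 of the 6 libraries were above every Control library, and Day 7 replicate 6 was the exception. By Day 14 the level ran from 4.05 to 11.1 FPKM around a median of 7.84, overlapping Control in both directions, with a change of 0.30 (SE 0.17, adjusted p = 0.206); without Day 14 replicate 6 it was 0.45 with an adjusted p of 0.0354. The Day 21 libraries were close together at 7.46, 7.64, 7.64, 6.87 and 7.29 FPKM. Of these 5, 4 were above the Control range, and the change of 0.31 (SE 0.18) did not pass the test (adjusted p = 0.339). The rises on Day 3 and Day 7 were called under every alternative that was run.

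The genes that hold NRF2 in check or pair with it did not follow Nfe2l2. Of 8 partners and regulators, none was called higher and 4 were called lower on Day 3, with a median log2 change of -0.42. Among all tested genes 23.4% were called higher and 19.8% lower on that day. Keap1, the sensor that binds NRF2, had a mean of 16.2 FPKM (SD 2.03, n = 5) in Control and 9.61 FPKM (SD 0.890, n = 5) on Day 3, a change of -0.70. Cul3, the scaffold of the ligase, fell by 1.24 on the log2 scale, from a mean of 52.2 to 21.6 FPKM. It was the only gene of the 8 called on Day 21 (change -0.81), when 1.69% of all genes were called lower. That call was lost without the filter on low values, after quantile normalization, on the common sum and on the own total. With a library left out, 0 to 1 of the 8 were called on Day 21. With a replicate block by number or letter, or with only the 2 groups fitted, 2 were called. Nfe2l1, a relative of NRF2 that controls proteasome genes, changed by -0.76 and Mafk, a small MAF partner, by -0.41 on Day 3. The same 4 genes were lower on Day 7, and Cul3 and Keap1 on Day 14. Bach1, which competes with NRF2 for its elements, changed by 0.21 on Day 3 and was not called. These falls were relative to the typical gene. With FPKM rescaled to a common sum, no partner was called lower on Day 3, 2 were called higher, and the change of Keap1 was 0.07 and that of Cul3 -0.44.

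A difference taken within each library does not depend on these scales, apart from the pseudocount. The 5 differences reported here were set up after the values had been seen, and their exact permutation tests, 20 in all, were adjusted together. The log2 level of Nfe2l2 minus that of Keap1 was -1.36, -1.0, -1.79, -0.93 and -1.62 in Control and -0.01, -0.24, 0.17, 0.39 and -0.32 on Day 3. The groups did not overlap, and the difference rose by 1.34 on the log2 scale (exact permutation test, two-sided, p = 0.00794, adjusted 0.0317). Keap1 RNA thus stood above Nfe2l2 RNA in each Control library and close to it on Day 3. The shift was 1.15 on Day 7 (adjusted 0.0317), where all 6 libraries were above Control, and 0.93 on Day 14 (adjusted 0.0529), where Day 14 replicate 6 lay at -1.61 within the Control range. On Day 21 the values were -0.50, -0.52, -0.61, -0.89 and -0.31, again all above Control, a shift of 0.78 (adjusted 0.0317). It was the only difference of the 5 with no overlap between Day 21 and Control.

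Nqo1 (chr8:107388225-107403206, minus strand) encodes a quinone reductase that is often used as a readout of NRF2, and it went down rather than up. Control libraries held 6.62, 11.7, 10.2, 13.5 and 13.2 FPKM and Day 3 libraries 10.1, 8.11, 9.54, 10.6 and 4.66 FPKM. Control replicate 1 was as low as many injured libraries, the groups overlapped, and the Day 3 change of -0.33 (SE 0.27, adjusted p = 0.349) did not pass. On Day 7 the lowest, median and highest levels were 3.86, 5.55 and 9.56 FPKM, with a change of -0.74 (SE 0.26, adjusted p = 0.0356). On Day 14 they were 2.40, 5.67 and 8.04 FPKM, with a change of -0.94 (SE 0.26, adjusted p = 0.0131), or 1.92-fold lower. At each of these times 3 of 6 libraries lay below every Control library. Day 21 libraries, at 6.41, 6.53, 6.80, 10.5 and 8.42 FPKM, were intermediate (change -0.45, SE 0.27, adjusted p = 0.376). The Day 7 call was lost without Control replicate 2, 3, 4 or 5 or without Day 7 replicate 1, 2 or 4 (adjusted p 0.0527 to 0.0853), when only the 2 groups were fitted (0.0545) and when low genes were kept in (0.0789). Rescaled to a common sum, the change of Nqo1 was -0.11 on Day 7 and -0.56 on Day 14, and neither was called (adjusted p = 0.762 and 0.17). Between 64 and 391 reads per library lay behind these levels.

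Gclc and Gclm encode the catalytic and the modifier subunit of glutamate-cysteine ligase, the enzyme that sets the rate of glutathione synthesis. By mean FPKM they were the lowest of the 10 genes in every group, and only Gclm was called. Gclc (chr9:77754535-77794485, plus strand) had 2.31, 2.56, 3.03, 2.67 and 2.27 FPKM in Control, 2.88, 1.64, 2.17, 3.36 and 2.58 FPKM on Day 3, and a median of 2.47 FPKM on Day 7. Its change was -0.03 (95% interval -0.38 to 0.31) on Day 3 and -0.02 (-0.35 to 0.31) on Day 7. The medians on Day 14 and Day 21 were 3.37 and 3.11 FPKM, with changes of 0.22 and 0.23 that did not pass (adjusted p = 0.346 and 0.458). The Day 3 change of Gclc on the common sum was 0.65, close to the 0.62 of the median gene.

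Gclm (chr3:122245557-122270732, plus strand) had 2.47, 2.76, 2.52, 3.40 and 2.19 FPKM in Control and 4.68, 3.96, 4.43, 5.13 and 2.20 FPKM on Day 3. On Day 3, 4 of 5 libraries were above every Control library, Day 3 replicate 5 was at the bottom of the Control range, and the change was 0.44 (SE 0.17, adjusted p = 0.0416), a 1.36-fold rise. This call was weak. It was lost without Control replicate 1, 2, 3 or 5 and without Day 3 replicate 1, 2, 3 or 4 (adjusted p 0.0578 to 0.123), without the filter on low values (adjusted p = 0.0788), and after quantile normalization (0.28, adjusted p = 0.185). On Day 7 the lowest, median and highest levels were 2.19, 3.90 and 5.53 FPKM and the change 0.38 (SE 0.17) did not pass (adjusted p = 0.0832); without Day 7 replicate 6 it was 0.50 with an adjusted p of 0.0179. It was, on the common sum and the own total, 1.07 and 0.80, and passed (adjusted p = 0.00859 and 0.0102). The levels were 2.83 to 4.65 FPKM on Day 14 and 2.41 to 4.35 FPKM on Day 21, with changes of 0.27 and 0.13. Gclm was not called between Day 21 and Day 3 (change -0.31, adjusted p = 0.198), but it was without Day 3 replicate 5 (-0.47, adjusted p = 0.0336). Gclm shares 296 exon bases with Gm17494 on the opposite strand and 244 with the pseudogene Gm6061. The libraries did not keep strand, but these neighbours held at most 10 reads in any library. Within libraries, Gclm minus Gclc was 0.07, 0.08, -0.20, 0.26 and -0.03 in Control and 0.55, 0.91, 0.78, 0.49 and -0.16 on Day 3, so that 4 of 5 Day 3 libraries were above Control. The shift was 0.48 (exact permutation p = 0.0476, adjusted 0.0794) and failed the adjustment.

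Txnrd1 (chr10:82833951-82897712, plus strand) encodes the cytosolic reductase that keeps thioredoxin active. It was nearly constant in Control at 8.61, 8.92, 7.82, 9.15 and 9.06 FPKM and spread widely on Day 3, at 8.41, 11.1, 9.22, 10.6 and 5.21 FPKM. The means of 8.71 and 8.91 FPKM were alike and the change was -0.01 (95% interval -0.35 to 0.34). Day 7 libraries ran from 5.02 to 9.28 FPKM around a median of 8.60, a change of -0.13. The levels were 5.45 to 8.46 FPKM on Day 14 and 5.26 to 8.53 FPKM on Day 21. On Day 14 and Day 21 most libraries were below Control, with 4 of 6 and 4 of 5 below its range and changes of -0.27 and -0.27 (adjusted p = 0.242 and 0.388). The exact permutation test gave p = 0.0216 and 0.0159, or 0.0773 and 0.0661 after adjustment over the 50 tests of the 10 genes. Between Day 21 and Day 3 Txnrd1 was not called (change -0.26, adjusted p = 0.261), but it was lower on Day 21 without Day 3 replicate 5 (-0.42, adjusted p = 0.0434), on the common sum (-0.87, adjusted p = 0.039) and on the own total (-0.68, adjusted p = 0.0333). Its Day 3 change turned to 0.77 on the common sum (adjusted p = 0.0494), near the median gene.

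Srxn1 (chr2:152105516-152111376, plus strand), which encodes sulfiredoxin, the enzyme that repairs over-oxidised peroxiredoxins, had 10.1, 9.77, 15.5, 12.7 and 9.91 FPKM in Control and 13.8, 17.4, 13.8, 16.1 and 7.50 FPKM on Day 3. On Day 3, 2 libraries were above the Control range and 1 below it, and the change was 0.20 (SE 0.22, adjusted p = 0.505). Its changes on Day 7, Day 14 and Day 21 were -0.06, -0.02 and 0.04, and its levels ran from 5.32 to 16.9 FPKM on Day 7 and from 7.90 to 14.4 FPKM on Day 14. The Day 21 libraries were tightly grouped, from 10.7 to 12.6 FPKM, and all lay inside the Control range. The Day 3 change of Srxn1 on the common sum was 0.99 and passed (adjusted p = 0.0191). Day 3 replicate 5 was the lowest library of its group for Nfe2l2, Nqo1, Gclm, Txnrd1, Srxn1, Gpx1, Sod1 and Cat, and its macrophage markers summed to 318 FPKM against 1005 to 2154 FPKM in the other Day 3 libraries.

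Gpx1 (chr9:108338903-108340343, plus strand), a glutathione peroxidase of the cytosol that reduces hydrogen peroxide, had the largest Day 3 change of the 10 genes. Control libraries held 49.8, 54.2, 61.7, 52.9 and 63.3 FPKM. Day 3 libraries held 176, 181, 239, 275 and 113 FPKM. No Day 3 library came near the Control range, and the change was 1.73 (SE 0.30, adjusted p = 6.28e-05), a 3.31-fold rise with a 95% interval of 2.17 to 5.05. On Day 7 the lowest, median and highest were 58.8, 120 and 263 FPKM with a change of 1.11 (SE 0.28, adjusted p = 0.00549). Day 7 replicate 6 was inside the Control range and Day 7 replicate 5 reached the level of Day 3. On Day 14 all 6 libraries, from 69.7 to 140 FPKM, were above Control, with a change of 0.85 (SE 0.28, adjusted p = 0.0351). The Day 3 and Day 7 calls of Gpx1 held under every alternative that was run. The Day 14 call was lost without Control replicate 1, 2, 4 or 5 or Day 14 replicate 2, 3, 4 or 6 (adjusted p 0.0508 to 0.075), and without the filter on low values (adjusted p = 0.0758).

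On Day 21 Gpx1 stood at 128, 125, 109, 127 and 58.6 FPKM. Of these, 4 were above every Control library and Day 21 replicate 5 was inside the Control range, giving a change of 0.89 (SE 0.30) that did not pass (adjusted p = 0.09). Without Day 21 replicate 5 the change was 1.10 and passed (adjusted p = 0.0455), and it passed as well with only these 2 groups in the fit (adjusted p = 0.0213). Direct comparison of Day 21 with Day 3 gave -0.83 (SE 0.30, adjusted p = 0.0396), 1.78-fold lower, a level between those of Day 3 and Control. That call was lost without Day 3 replicate 1, 2, 3 or 4 or Day 21 replicate 3 or 5 (adjusted p 0.0537 to 0.128), and without the filter on low values (adjusted p = 0.0788). Among all genes, 9.23% were called higher and 16.2% lower on Day 21 than on Day 3 on the deposited scale, as 1351 and 2377 genes, against 174 and 4872 on the common sum and 2108 and 2105 after quantile normalization.

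Markers of macrophages also rose early. All 9 markers, among them Lyz2, Cd68, Csf1r and Adgre1, were called higher on Day 3, 8 on Day 7, 2 on Day 14 and none on Day 21. Their summed level was 17.7 to 25.8 FPKM in Control, 318 to 2154 on Day 3, 49.1 to 2026 on Day 7, 45.8 to 106 on Day 14 and 31.9 to 59.1 on Day 21. Day 7 replicate 5, which had the highest Gpx1 of its group, had the sum of 2026 FPKM, and Day 7 replicate 6, which had the lowest, the sum of 49.1 FPKM. On Day 3 the sums of replicates 1 to 5 were 1423, 1005, 1981, 2154 and 318 FPKM. Gpx1 in these libraries was 176, 181, 239, 275 and 113 FPKM. On Day 14 the sums of replicates 1 to 6 were 94.0, 103, 45.8, 84.9, 106 and 56.4 FPKM. Gpx1 in these was 78.5, 140, 120, 111, 69.7 and 110 FPKM. On Day 21 the sums of replicates 1 to 5 were 47.6, 59.1, 51.8, 31.9 and 43.1 FPKM, with Gpx1 at 128, 125, 109, 127 and 58.6 FPKM. None of the 9 markers was at 0 throughout. Among all tested genes 23.4% were called higher on Day 3, 15% on Day 7, 9.02% on Day 14 and 1.74% on Day 21. Of markers of other cell types, 5 of 6 for fibroblasts and 3 of 3 tested for neutrophils were also called higher on Day 3, and none of 5 for red cells. Neutrophil markers were called higher in 2 of 3 on Day 7 and none later. Adipocyte markers were called higher in 4 of 4 on Day 7 and none at the other times. Fibroblast markers were called higher in 5 of 6 on Day 7 and Day 14 and in 2 of 6 on Day 21. Markers of regenerating fibres were called higher in 4 of 4 on Day 3, Day 7 and Day 14 and in 2 of 4 on Day 21. For endothelium 3 of 5 were called lower on Day 3, when 19.8% of all genes were. The part of these cells in the Gpx1 result was not tested.

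Sod2 (chr17:13006846-13040063, plus strand) encodes the manganese superoxide dismutase of the mitochondrial matrix, and it was called lower on Day 3, Day 7 and Day 14. Control libraries held 58.6, 41.7, 45.7, 43.5 and 45.4 FPKM, and Day 3 libraries 23.9, 23, 16.9, 10.9 and 22.4 FPKM. The groups were far apart, with a change of -1.27 (SE 0.23, adjusted p = 9.32e-05), or 2.42-fold lower. Day 7 libraries ran from 13.2 to 31.4 FPKM around a median of 21.8 (change -1.12, SE 0.22, adjusted p = 0.000731). Day 14 libraries ran from 21.4 to 39.4 FPKM around a median of 26.6 (change -0.73, SE 0.22, adjusted p = 0.0192). On Day 21 the levels were 35.0, 31.9, 37.8, 35.0 and 28.7 FPKM, still below every Control library, although the change of -0.47 (SE 0.23) did not pass in limma fitted to all groups (adjusted p = 0.253). With only these 2 groups in the fit it passed (adjusted p = 0.0274). The exact permutation test gave p = 0.00794 on Day 21, the smallest possible with 5 against 5, and 0.0496 after adjustment over 50 tests. Sod2 was 1.75-fold higher on Day 21 than on Day 3 (change 0.81, SE 0.23, adjusted p = 0.0107), with no overlap between these groups. That call was lost without Day 3 replicate 4 (0.63, adjusted p = 0.0526). It was lost as well on the common sum (0.21, adjusted p = 0.407) and on the own total (0.36, adjusted p = 0.0878).

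The Day 3 fall of Sod2 was called under every alternative, including the common sum, on which it was -0.49. On that scale the falls of -0.43 on Day 7 and -0.27 on Day 14 were not called (adjusted p = 0.0603 and 0.307). The Day 14 fall was not called either on the own total (-0.34, adjusted p = 0.119) or after quantile normalization (-0.48, adjusted p = 0.0926), and the Day 14 call was also lost without Control replicate 1 (-0.65, adjusted p = 0.0571) or Day 14 replicate 5 (-0.67, adjusted p = 0.0522). A small set of other mitochondrial genes was lower at the same times. Of 8 reference genes of respiration and import, such as Cs (citrate synthase), Atp5b and Ndufs1, 7 were called lower on Day 3, 7 on Day 7, 6 on Day 14 and none on Day 21, with a median log2 change of -1.17 on Day 3 and -0.49 on Day 21. On Day 3, 19.8% of all genes were called lower. On the common sum 1 of the 8 was called lower on Day 3, and on the own total 5. Of the 8 fast fibre markers 7 were called lower on Day 3, but 2 after quantile normalization and 3 on the common sum, and their sum was 22442 to 65911 FPKM on Day 3 against 87584 to 104311 in Control. The part of fibre loss in the Sod2 result was not tested.

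Taken relative to the mean of these 8 mitochondrial genes within each library, little of the Sod2 change was left. The difference was -2.17, -2.32, -2.22, -2.31 and -2.33 in Control and -2.28, -2.39, -2.45, -2.63 and -2.44 on Day 3. Sod2 fell by 1.27 and the reference mean by 1.10 on the log2 scale, which left -0.17 (exact permutation p = 0.0317, adjusted 0.0635). On Day 7 the remainder was -0.20 (exact permutation p = 0.0173, adjusted 0.0495), and the groups overlapped. On Day 14 and Day 21 it was 0.03 and 0.00 (adjusted 0.893 and 0.992). The 3 genes whose log2 level across the 27 libraries was most like that of Sod2 were Coq10a, Atp5c1 and Ndufa9, with Pearson's r of 0.986, 0.985 and 0.985, a description that shares the groups and the libraries.

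**Figure D3:**
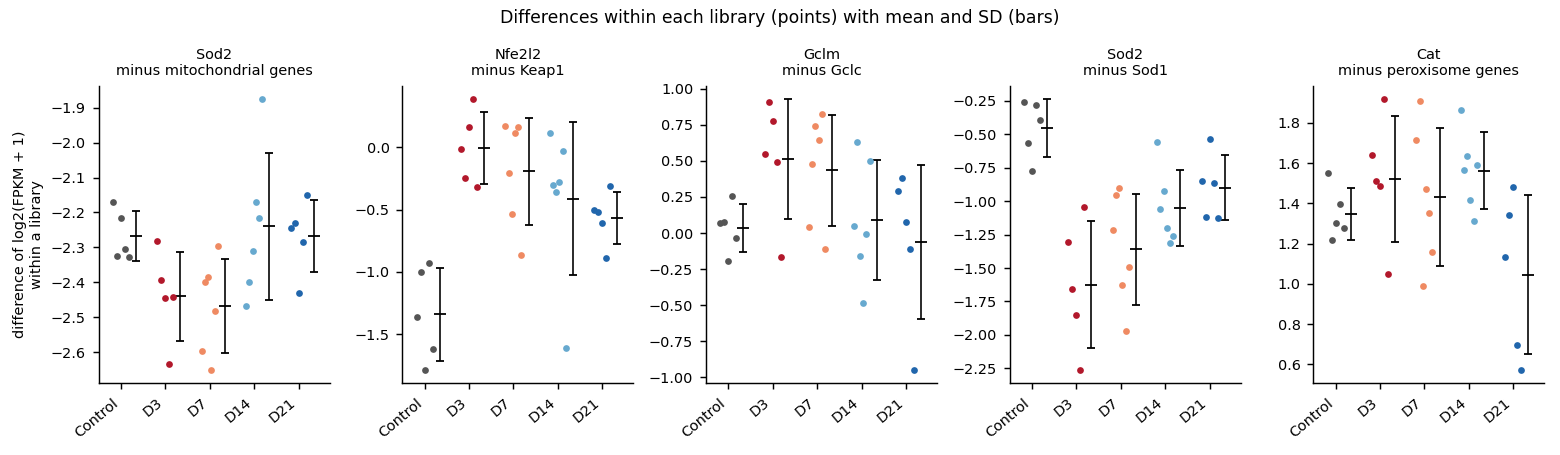
Differences of log2(FPKM + 1) within each library (y axis, own range per panel) by group, with mean and SD of 5, 5, 6, 6 and 5 libraries. Nfe2l2 minus Keap1 lay above every Control library on Day 3, Day 7 and Day 21, while Sod2 minus the mitochondrial genes overlapped Control at all 4 times.

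Sod1 (chr16:90220754-90226329, plus strand), the copper-zinc dismutase of the cytosol, did not follow Sod2. Its Control libraries held 70.2, 62.2, 78.9, 53.1 and 60.0 FPKM and its Day 3 libraries 60.5, 74.7, 63.7, 56.2 and 47.2 FPKM, with broad overlap and a change of -0.10 (95% interval -0.53 to 0.32). Day 7 libraries ran from 36.2 to 78.0 FPKM (change -0.22) and Day 14 libraries from 31.8 to 95.8 FPKM (change -0.13), a wider spread than in Control. On Day 21 the 5 libraries lay between 55.3 and 70.2 FPKM and the change was -0.02 (95% interval -0.45 to 0.40). The change of Sod1 turned on the common sum to 0.72 on Day 3 (adjusted p = 0.00196) and on the own total to 0.55 (adjusted p = 0.00589), beside 0.62 and 0.40 for the median gene. Within libraries, Sod2 minus Sod1 was -0.26 to -0.77 in Control and -1.04 to -2.26 on Day 3. These ranges did not overlap, and the shift was -1.17 on Day 3 and -0.91 on Day 7 (exact permutation, adjusted 0.0317 at both times). It was -0.60 on Day 14 (adjusted 0.0433) and -0.44 on Day 21 (adjusted 0.0529). Sod1 was the most abundant of the 10 genes in Control at a mean of 64.9 FPKM (SD 9.92, n = 5), and Gpx1 at all later times.

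Cat (chr2:103453849-103485160, minus strand) encodes catalase, which breaks down hydrogen peroxide in peroxisomes. Control libraries held 36.6, 25.8, 26.7, 31.0 and 27.7 FPKM and Day 3 libraries 28.4, 26.0, 24.1, 31.0 and 16.7 FPKM, and the change was -0.24 (SE 0.22, adjusted p = 0.414). Day 7 libraries held 17.9 to 39.0 FPKM and Day 14 libraries 20.4 to 32.9 FPKM, with changes of -0.26 and -0.07. The lowest levels were on Day 21, at 22, 26.0, 33.7, 16.9 and 12.6 FPKM. Of these 5, 3 were below the Control range and the change of -0.46 (SE 0.22) did not pass (adjusted p = 0.251). Cat on the common sum was at 0.57 on Day 3 and -0.27 on Day 21, neither called. Of 10 genes of peroxisome assembly and fatty acid breakdown, 5 were called lower on Day 3, led by Ech1 (-1.18) and Abcd3 (-0.84), and 1, Hsd17b4, on Day 21 (-0.43). Among all tested genes 19.8% were called lower on Day 3 and 1.69% on Day 21. The Day 21 call of this list was lost without any 1 Control replicate, without Day 21 replicate 1, 2, 4 or 5, without the filter on low values, after quantile normalization, on the common sum, on the own total and with voom weights. On the common sum none was called lower on Day 3 and 3 were called higher. The difference between Cat and the mean of these 10 genes shifted by 0.17 on Day 3, 0.21 on Day 14 and -0.30 on Day 21, and none of its 4 tests passed after adjustment (adjusted 0.402, 0.0787 and 0.238 at these times).

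Other genes of the same systems were described from 5 lists with 54 tested genes. On Day 3, 14 were called higher and 17 lower, on Day 7 11 and 17, on Day 14 6 and 11, and on Day 21 1 and 2. On Day 3 this was 25.9% higher and 31.5% lower, beside 23.4% and 19.8% of all genes, and on Day 7 20.4% and 31.5%, beside 15% and 14.4%. With the common sum 28 were called higher and 0 lower on Day 3, and 23 and 2 on Day 7. Of all 14630 genes, 6942 were called higher and 324 lower on that scale on Day 3, and 6372 and 210 on Day 7. Among 18 other genes known as NRF2 targets, 7 were called higher and 2 lower on Day 3, with a median log2 change of 0.09. Hmox1, heme oxygenase, rose from a mean of 4.24 FPKM (SD 1.56, n = 5) to 110 FPKM (SD 57.7, n = 5), a change of 4.11 (adjusted p = 2.2e-05). Ftl1, the light chain of ferritin, rose from 73.5 to 850 FPKM (change 3.31). The pentose phosphate enzymes G6pdx, Pgd, Tkt and Taldo1, which make NADPH, changed by 1.90, 1.76, 1.57 and 0.52, and Blvrb, a biliverdin reductase, by 1.69. Me1, malic enzyme, fell by 1.52 and Gstm1, a glutathione transferase, by 0.84 on the log2 scale. Of the 18, 13 were called higher and 0 lower on the common sum (6942 and 324 of all 14630 genes), and on the own total 12 and 1 (6534 and 618). Me1 was then at -0.73 and -0.87, called on the own total alone, and Gstm1 at -0.02 and -0.18, called on neither. Fth1, the ferritin heavy chain, had a mean of 2283 FPKM in Control and 2281 FPKM on Day 3 and was not called. None of the 18 was called on Day 21. Slc7a11, the cystine transporter, and Gsta3 were too low to be tested, with at most 31 and 64 reads in a library. Macrophage markers rose at the same times as these 7 genes, as given above, and the part of those cells in the rises was not tested.

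Of 11 genes of glutathione synthesis and recycling, 1 was called higher, 5 lower and 5 neither on Day 3. Among all tested genes 23.4% were called higher and 19.8% lower on that day. Chac1, which degrades glutathione, fell by 1.78 on the log2 scale, from a mean of 31.0 to 9.29 FPKM, and Oplah, Glrx5, Glrx2 and Ggct fell by 0.83, 0.69, 0.51 and 0.54. Ggt5, a glutamyl transferase, rose by 0.39. On the common sum none of the 11 was called lower and 3 were called higher. Among 12 other dismutases and peroxidases, 5 were called higher and 3 lower on Day 3. Those that rose included Sod3, the secreted dismutase (change 2.0), and 3 enzymes of the endoplasmic reticulum, Prdx4 (1.97), Gpx8 (1.49) and Gpx7 (1.21), together with the secreted Gpx3 (0.68). Those that fell were Prdx3, a mitochondrial peroxiredoxin (-1.12), Prdx5, a peroxiredoxin found in several compartments (-0.79), and Gpx4 (-0.58), which reduces lipid peroxides, and on the common sum none of the 12 was called lower. Gpx3 was the gene of this list called on Day 21, at 1.10, when 1.74% of all genes were called higher. On the common sum that call was lost, and with a library left out 0 to 1 of the 12 were called on Day 21. With a replicate block by number 2 were called, and 3 by letter or with only the 2 groups fitted.

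In the thioredoxin system, Txn1, the cytosolic thioredoxin, rose from a mean of 56.9 to 166 FPKM on Day 3 (change 1.47). Its mitochondrial counterparts Txn2 and Txnrd2 changed by -0.51 and -0.63, and Txnip, a binding protein that blocks thioredoxin, by -1.28. Txnip was still lower on Day 21, at 81.1 against 163 FPKM in Control (change -1.01, adjusted p = 0.0132). On the common sum none of these falls was called on Day 3, while Txn1 was called higher. The Day 21 call of Txnip was lost on that scale.

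**Figure D4:**
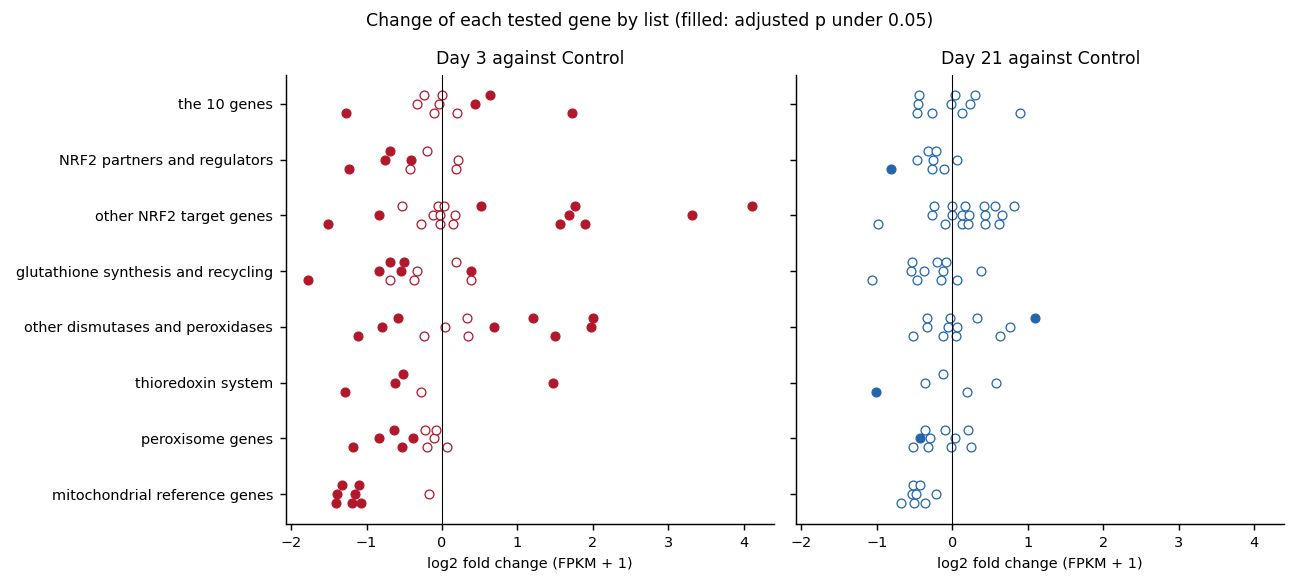
Log2 fold change of FPKM + 1 (x axis) of each tested gene on Day 3 and Day 21, 1 row of points per list; filled points have an adjusted p under 0.05 on the deposited scale. On Day 3 the mitochondrial genes lay to the left of 0 and the other NRF2 targets were spread from -1.52 to 4.11, and on Day 21 few points were filled.

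The 3 genes nearest in pattern to each of the others, by Pearson's r of log2 levels over 27 libraries and as a description only, were as follows. For Gpx1 they were Lgmn (0.933), Rpl3 (0.931) and Tspo (0.926). For Nfe2l2 they were Gga2 (0.870), Cbx5 (0.846) and Hif1a (0.838), and for Nqo1 Slc35b1 (0.867), Ccnk (0.841) and Syngr1 (0.839). For Txnrd1 they were Ykt6 (0.898), Etf1 (0.891) and G3bp1 (0.873), and for Sod1 Eef1d (0.913), Elob (0.906) and Ubl5 (0.905). The nearest genes to Gclc, Gclm, Srxn1 and Cat were Mbtd1 (0.764), Bzw1 (0.828), Cstf1 (0.766) and Gbe1 (0.760).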

How the data were processed

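Messenger RNA of 27 mouse tibialis anterior muscles was sequenced from poly-A selected, non-directional libraries. The authors aligned reads and counted them per gene (HISAT2 2.0.5 and featureCounts 1.5.0-p3 in the submitters' processing notes) and deposited FPKM values, the unit of every value used here. How the authors set the per-million denominator is not given in the sources used here. Nearly all genes gave whole numbers of reads when each library's step was recovered (tolerance 0.05), and these reads give the depth of 14376395 to 24436763 per library. Coordinates are those of the table, and all 10 genes matched GENCODE M21.

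FPKM + 1 (pseudocount 1) were taken to log2. Genes with at least 0.5 FPKM in at least 5 samples were kept, 14630 in all. limma 3.58.1 (R 4.3.3) with a variance trend was fitted with a mean per group, following the study's use of limma, with Benjamini-Hochberg adjustment within each comparison and a threshold of 0.05. The procedure was tested on simulated data with 200 changed genes. Single genes and within-library differences were tested by two-sided exact permutation, adjusted over 50 and 20 tests. The smallest p such a test allows is 0.00794 for 5 against 5 libraries and 0.00433 for 6 against 5. Promoters are from RefSeq.

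The 10 genes and the lists were chosen with earlier results of these data known. List genes were named as the up to 4 largest changes among those called on Day 3 and on Day 21, and other list genes named in the text were chosen after their values were seen. The within-library differences were added after the values were seen. Alternatives were the pseudocount, the filter, 4 scalings, the test, a replicate block, the groups in the fit, and leaving out libraries. Intervals are limma's at 95%.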

Additional observations from a re-analysis of the deposited data

Results flagged for a closer look

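A single library stood far from the rest of its group in 4 of the 50 sets of values examined (10 genes in 5 groups), by the gap to its neighbour against the range of the group. Chance alone would give this in about 1 in 20 sets. Day 7 replicate 6 had the lowest Nfe2l2 of its group, at 6.36 FPKM. Day 21 replicate 5 had the highest Gclc, at 5.57 FPKM, and the lowest Gpx1, at 58.6 FPKM, of its group. Control replicate 1 had the highest Sod2 of its group, at 58.6 FPKM. Day 7 replicate 6 lay nearer by whole profile to the Day 21 mean, and Day 21 replicate 5 nearer to the Day 14 mean, than to their own groups.

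The effect of injury differed between Day 3 and Day 21 for 2 of the 10 genes, by the limma test of the difference between these groups. Among all tested genes 9.23% were called higher and 16.2% lower on Day 21 than on Day 3, so that 2 of 10 does not set these genes apart. Gpx1 was lower on Day 21 by a log2 change of -0.83 (SE 0.30, adjusted p = 0.0396), and Sod2 was higher by 0.81 (SE 0.23, adjusted p = 0.0107, higher in 5 of 5 libraries). The Sod2 difference was 0.21 and 0.36 on the common sum and the own total and was not called (adjusted p = 0.407 and 0.0878). The Sod2 call was lost as well without Day 3 replicate 4 (adjusted p = 0.0526). The Gpx1 call was lost without the filter on low values (adjusted p = 0.0788) and with a replicate block by letter (adjusted p = 0.106). Leaving out Day 3 replicate 1, 2, 3 or 4 or Day 21 replicate 3 or 5 also lost the Gpx1 call. Both groups are set against the same Control libraries, which drop out of this difference.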

How the results depend on the processing

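Depth and number set the limits. With 5 or 6 libraries a group, 95% intervals of the log2 changes were wider than the smaller changes, so that a gene not called is not shown to be unchanged. The scale mattered most, since the 2 scales built on library totals lifted the median gene on Day 3. The cause of each shift was not tested.

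On Day 3 these 2 scales (common sum, then own total) gave 6 and 6 genes called higher against 3. Of all 14630 genes, 6942 and 6534 were called higher on them, against 3417 on the deposited scale. The 2 scales turned the changes of Nqo1 to 0.43 and 0.27, Gclc to 0.65 and 0.44, Txnrd1 to 0.77 and 0.59, Sod1 to 0.72 and 0.55 and Cat to 0.57 and 0.40. Quantile normalization gave 0.12 for Sod1, and leaving out Day 3 replicate 5 with Day 7 replicate 5 gave 0.15 for Txnrd1. Leaving out single libraries gave -0.12 to 0.065 for Gclc and -0.088 to 0.15 for Txnrd1.

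On Day 7 the common sum gave 4 genes higher and 0 lower, beside 6372 and 210 of all 14630 genes. Of the 10 genes, 1 was lower on the own total, without the filter and with only the 2 groups compared. With a library left out 1 to 2 were lower. The 2 scales gave 0.60 and 0.39 for Gclc, 0.55 and 0.37 for Txnrd1, 0.63 and 0.45 for Srxn1, 0.50 and 0.33 for Sod1, and 0.45 and 0.27 for Cat. Quantile normalization gave 0.0078 for Srxn1 and 0.056 for Sod1, and voom weights 0.0029 for Gclc. Left-out libraries gave -0.072 to 0.032 for Gclc and -0.18 to 0.12 for Srxn1.

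On Day 14, 0 genes were higher without the filter and 0 to 1 with a library left out. The lower genes were 1 after quantile normalization, 0 and 0 on the 2 scales (117 and 288 of all 14630 genes), and 1 to 2 with a library left out. Txnrd1 turned to 0.17 and 0.090, Srxn1 to 0.44 and 0.35, Sod1 to 0.34 and 0.26 and Cat to 0.40 and 0.32 on the 2 scales, and after quantile normalization Srxn1, Sod1 and Cat to 0.10, 0.14 and 0.17. Left-out libraries gave -0.084 to 0.084 for Srxn1, -0.27 to 0.038 for Sod1 and -0.11 to 0.020 for Cat.

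On Day 21, 1 gene was higher and 1 lower with only the 2 groups compared, beside 757 and 720 of all 14630 genes. The higher genes were 1 without Day 3 replicate 5 and Day 7 replicate 5, and 0 to 1 with a library left out. The 3 called genes of the redox lists became 0 on the common sum, 11 with only the 2 groups compared, and 1 to 4 with a library left out. Sod1 was 0.12 after quantile normalization and 0.17 and 0.17 on the 2 scales, and with a library left out ran from -0.088 to 0.052, and Srxn1 from -0.015 to 0.14. Between Day 21 and Day 3 the 2 scales gave 0 and 0 of the 10 genes higher and 5 and 4 lower. Among all 14630 genes, 174 and 314 were called higher and 4872 and 4484 lower on these scales. Gclc turned to -0.24 and -0.089, and Sod1 to -0.54 and -0.38. Of the 10 genes, 0 were lower without the filter, and 3 without Day 3 replicate 5 and Day 7 replicate 5 (Sod1 then -0.00100). With a library left out 0 to 3 were lower and 0 to 1 higher, and Sod1 ran from -0.00100 to 0.16.

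Of the within-library differences, those near 0 changed sign. Sod2 minus mitochondrial genes on Day 21 was -0.0054 and -0.0026 with pseudocounts of 0.1 and 0.5, and -0.0030 and -0.00052 on the 2 scales. With a library left out it ran from -0.029 to 0.041 on Day 21 and from -0.044 to 0.074 on Day 14. Cat minus peroxisome genes ran from -0.011 to 0.17 on Day 7, and Gclm minus Gclc from -0.055 to 0.17 on Day 14 and from -0.21 to 0.12 on Day 21.

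The groups share replicate numbers. Deviations from the group means in Control and in same-numbered injured libraries had correlations of -0.30 to 0.14 (20 pairs, 1 above 0.1). Injured groups were not paired with each other, so this cannot decide whether libraries of a number share more than the number. Of all genes, 390 were called higher and 405 lower on Day 21 with a block by number, and 558 and 675 with a block by letter. Without a block these were 255 and 247. With a replicate block by number or by letter, 2 and 2 genes were higher on Day 14, with Nfe2l2 at 0.43 and 0.39 (adjusted p = 0.0216 and 0.0487), Gclm passed on Day 7 at 0.45 and 0.43 (adjusted p = 0.0399 and 0.0456), and 5 and 9 genes of the redox lists were called on Day 21. The block by letter gave 0 genes lower on Day 21 than on Day 3 (Gpx1 -0.74, adjusted p = 0.106) and -0.026 for Sod1. The blocks by number and letter gave 0.031 and 0.019 for Gclc on Day 7 and 0.047 and 0.026 for Srxn1 on Day 14, and the block by number 0.0019 for Srxn1 on Day 7.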
